A study of Bos taurus with 6 samples.

Results

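Intermediate filament genes were examined in primary bovine myoblasts treated with resveratrol (RSV), a plant polyphenol, or with its solvent dimethyl sulfoxide (DMSO). The list held 9 genes, NEFH, NEFM, NEFL, VIM, DES, NES, SYNM, LMNA and LMNB1, among 26332 mRNAs in the deposited table. NEFH was chosen by its large difference between the RSV and DMSO groups in these same data, and the others because they encode filament proteins of the same family. The table gives gene identifiers without symbols, and symbols were taken from the study's sheets of differentially expressed mRNAs, which name 1863 mRNAs with reads. Of the 9 genes, 4 had a symbol there, namely NEFH, SYNM, LMNA and VIM. NEFM, NEFL, DES, NES and LMNB1 had none and were not analysed here. Because the symbols came from sheets of mRNAs already found to differ, the difference between the groups is given for these genes as a description, with no test. A lack of overlap between the libraries of the groups is likewise a description and no trait of these genes. The share of all mRNAs without overlap was not computed.

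The cells were myoblasts from the longissimus dorsi muscle of fetal beef cattle. The RSV group consisted of 3 cultures kept for 4 days in differentiation medium with 20 μM RSV, and the control group of 3 cultures that received DMSO. The labels used here gave a dose and a day for the RSV cultures only. If the DMSO cultures were kept for another time, culture time and RSV cannot be told apart in any difference below. Each group came from 3 independent experiments by the study's methods, and the number of fetuses behind them was not given in the sources used here. The deposited table used here gives the mean of each group, so whole reads per library were recovered from these means. The study's sheets also give an FPKM value per sample for the mRNAs they name, and these values are not reported here. The libraries are called RSV library a, b and c and DMSO library a, b and c. The letters are names only, and the libraries were not linked to the sample titles. Values below are normalized reads, the reads of a library divided by its size factor, a number that scales for sequencing depth. The size factors were 1.09, 1.08 and 1.05 for RSV libraries a, b and c and 0.964, 0.960 and 0.886 for DMSO libraries a, b and c. The recovered reads summed to between 13457706 and 15695477 per library.

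Intermediate filaments are the rope-like fibers of the cytoskeleton, assembled from coiled-coil proteins that differ between cell types. Neurofilament proteins fill the axons of neurons, vimentin is the main filament of mesenchymal cells and undifferentiated myoblasts, and desmin takes its place as muscle fibers form, joined by the large proteins nestin and synemin. Lamins belong to the same family but form a meshwork under the inner nuclear membrane.

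The mRNA of NEFH (ENSBTAG00000013147), the heavy neurofilament subunit, was higher in every RSV library than in any DMSO library. RSV libraries a, b and c held 371, 315 and 608 reads of NEFH, or 341, 291 and 577 normalized reads. DMSO libraries a, b and c held 49, 63 and 47 reads of NEFH, or 50.9, 65.7 and 53.0 normalized reads. The lowest RSV library thus lay well above the highest DMSO library, and RSV library c stood above the other two RSV libraries. The mean of NEFH was 403 ± 153 (SD, n = 3) normalized reads in the RSV group and 56.5 ± 7.995 (SD, n = 3) in the DMSO group, a ratio of 7.13. The log2 difference between RSV and DMSO for NEFH was 2.76 with a standard error (SE) of 0.41, from limma voom, a linear model on log2 reads weighted by their precision. Without RSV library c, the log2 difference of NEFH was 2.47 with an SE of 0.17. In bulk RNA, more cells that express a gene and more RNA per cell cannot be told apart.

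SYNM (ENSBTAG00000011752), which encodes synemin, a filament protein that joins desmin and vimentin to the sites where muscle fibers attach to their membrane, was also higher in the RSV group. RSV libraries a, b and c had 757, 675 and 1006 normalized reads of SYNM. DMSO libraries a, b and c had 465, 445 and 407 normalized reads of SYNM. The groups did not overlap, and RSV library c was again the highest. The group means of SYNM were 812 ± 172 (SD, n = 3) in RSV and 439 ± 29.3 (SD, n = 3) in DMSO, a ratio of 1.85 and a log2 difference of 0.86 (SE 0.15). Without RSV library c, the log2 difference of SYNM was 0.70 (SE 0.08).

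VIM (ENSBTAG00000018463), which encodes vimentin, was lower in the RSV group. The authors' mean of VIM was 59677 normalized reads in RSV and 112600 in DMSO, so that the DMSO mean was 1.89 times the RSV mean, a log2 ratio of -0.92. The decimal points of both means were placed with the help of the study's FPKM values, which were used for nothing else. Of 12 combinations of whole reads that gave the RSV mean of VIM, 1 kept the highest library within 2.06 times the lowest, the limit set from other abundant mRNAs, at 61016, 63244 and 54770 normalized reads in RSV libraries a, b and c. In DMSO, 285 combinations of reads gave the mean of VIM and 4 lay within the limit for DMSO of 1.24 times, so the single DMSO libraries were not resolved from the mean alone, and the FPKM values per sample were not used to choose among the 4. Over those 4 combinations the DMSO libraries lay between 102442 and 126515 normalized reads. Given both means, the limits that picked the combinations already place every DMSO library above every RSV library. The order of the single VIM libraries is therefore no observation. Because its DMSO libraries were not resolved, VIM has no SE and was not in the model.

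LMNA (ENSBTAG00000017574), which encodes the A-type lamins of the nuclear lamina, was lower in the RSV group by a smaller factor. RSV libraries a, b and c had 14205, 15504 and 11966 normalized reads of LMNA. DMSO libraries a, b and c had 20127, 21869 and 20758 normalized reads of LMNA. All RSV libraries lay below all DMSO libraries, and RSV library c was the lowest. The group means of LMNA were 13892 ± 1790 (SD, n = 3) in RSV and 20918 ± 882 (SD, n = 3) in DMSO, so that the DMSO mean was 1.51 times the RSV mean, with a log2 difference of -0.60 (SE 0.09). Without RSV library c, the log2 difference of LMNA was -0.49 (SE 0.05). The decimal points of LMNA were also placed with FPKM values, and its DMSO reads were 1 of 3 combinations, in which the highest library was 1.09 times the lowest. In the closest of the others this factor was 6.02.

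**Figure D1:**
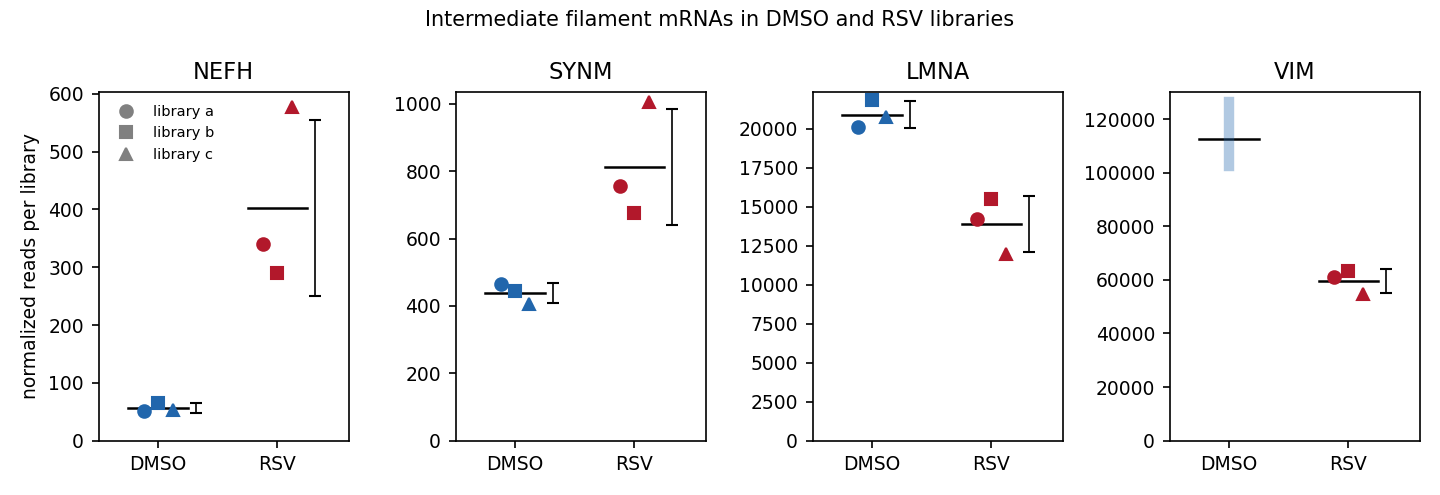
Normalized reads (y axis, starting at 0) of NEFH, SYNM, LMNA and VIM in the DMSO (blue) and RSV (red) libraries, with library a as a circle, b as a square and c as a triangle, the group mean as a horizontal line and the SD as an error bar. For VIM in DMSO the pale bar spans 102442 to 126515, the range over the 4 possible combinations of reads, and no single library is drawn. NEFH and SYNM lie higher in all 3 RSV libraries, and LMNA lies lower.

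The model covered 14899 mRNAs whose recovered reads averaged 10 or more after normalization. At a Benjamini-Hochberg adjusted p under 0.05, limma voom called 2476 of them higher in RSV (16.6%) and 2624 lower (17.6%). Of the 3 listed genes in the model, NEFH and SYNM were among the mRNAs called higher and LMNA among those called lower, which carries no weight since the same contrast chose them. All 1837 mRNAs in the model that had a symbol were called, 801 higher and 1036 lower. When the library sizes were taken from the total of recovered reads instead of the size factors, 3636 mRNAs were called higher and 1791 lower, and the median log2 difference of all mRNAs moved from 0.00 to 0.10. Under that scaling the log2 difference was 2.85 for NEFH, 0.96 for SYNM and -0.50 for LMNA. By log2 difference, NEFH ranked 49 among all 14899 mRNAs from the highest down, SYNM ranked 893 from the highest down, and LMNA ranked 1316 from the lowest up.

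**Figure D2:**
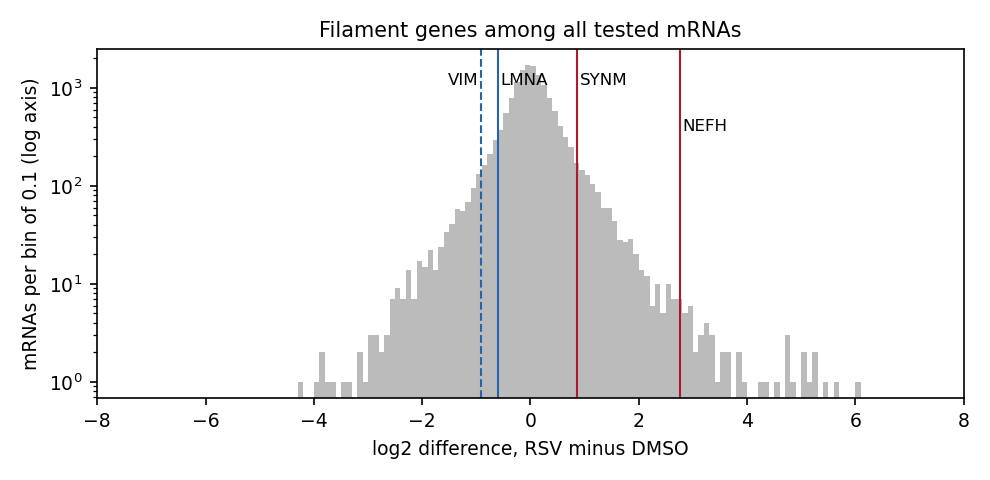
Number of mRNAs (y axis, log scale) by log2 difference between RSV and DMSO (x axis, bins of 0.1) for the 14899 mRNAs in the model. Solid lines mark the estimates of LMNA (-0.60), SYNM (0.86) and NEFH (2.76), and the dashed line marks VIM at the log2 ratio of its group means (-0.92), of which NEFH lies furthest from the centre.

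The spread among the RSV libraries differed between the filament genes. The SD of log2(normalized reads + 1) over the 3 RSV libraries was 0.52 for NEFH, larger than that of 95.7% of the 12446 mRNAs that averaged 50 or more normalized reads. Over the 3 DMSO libraries the SD of NEFH was 0.19, larger than that of 90.6% of these mRNAs. These comparisons were not matched for read number, and NEFH had only 49, 63 and 47 reads in DMSO libraries a, b and c. Low read counts widen the SD, so its place in DMSO does not show unusual variation between control cultures. SYNM had an SD of 0.30 over the RSV libraries and 0.10 over the DMSO libraries, and LMNA had 0.19 and 0.06. The median SD of these mRNAs was 0.12 over the RSV libraries and 0.07 over the DMSO libraries. All 3 genes thus varied more among RSV libraries than the median mRNA. LMNA had an SD below the median among DMSO libraries, but its DMSO reads were picked for a small spread, so this is no observation.

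Ratios between filament mRNAs within 1 library do not depend on its size factor. They were followed between groups only, since transcript lengths were not used here and the ratios do not compare levels of 2 genes. NEFH relative to SYNM was 0.451, 0.431 and 0.574 in RSV libraries a, b and c and 0.109, 0.148 and 0.130 in DMSO libraries a, b and c. SYNM relative to LMNA was 0.0533, 0.0435 and 0.0840 in RSV libraries a, b and c. In DMSO libraries a, b and c, SYNM relative to LMNA was 0.0231, 0.0204 and 0.0196. Both ratios were higher in every RSV library than in any DMSO library. For SYNM relative to LMNA this order was fixed, since SYNM was higher and LMNA lower in every RSV library. NEFH was chosen for its large difference, so its ratio to SYNM is a description only. From the group means, VIM relative to LMNA was 4.30 in RSV and 5.38 in DMSO.

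Among 12 further filament genes listed, PRPH, SYNC and KRT80 had a symbol, 1 called higher and 2 called lower. SYNC, which encodes syncoilin, a muscle filament protein that binds desmin, had 1921, 1867 and 1996 normalized reads in RSV libraries a, b and c. In DMSO libraries a, b and c SYNC had 1344, 1318 and 1360 normalized reads. The libraries of a group lay close together, and the log2 difference of SYNC was 0.52 (SE 0.05). PRPH and KRT80 lay below the minimum mean of 50 set for naming a gene and were picked out after their values were seen. PRPH, the peripheral neuron filament peripherin, had 3.68, 5.54 and 1.90 normalized reads in RSV libraries a, b and c and 32.2, 37.5 and 30.5 in DMSO libraries a, b and c. The log2 difference of PRPH was -3.12 (SE 0.40), opposite in sign to that of NEFH, another neuronal filament gene. Further genes of that kind, NEFM and NEFL among them, had no symbol. KRT80, an epithelial keratin, had 16.5, 31.4 and 4.74 normalized reads in RSV libraries a, b and c and 68.5, 66.7 and 73.3 in DMSO libraries a, b and c. Its log2 difference was -2.30 (SE 0.49).

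RSV library c was the RSV library furthest from the DMSO mean, in the direction of the difference, for NEFH, SYNM, LMNA, PRPH, SYNC and KRT80. For NEFH the distance from the DMSO mean on the scale of log2(normalized reads + 1) was 2.58, 2.35 and 3.34 in RSV libraries a, b and c. For KRT80 it was -2.01, -1.12 and -3.62. RSV library c was also the furthest for 66.0% of the mRNAs called higher and 73.8% of those called lower. This order was thus common among the called mRNAs, and it was not computed for the others. Whether the library itself has a part in the differences was not tested. Without it, NEFH, SYNM and LMNA kept the directions given above. Since the groups did not overlap for these genes, leaving out 1 library could not have reversed them.

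**Figure D3:**
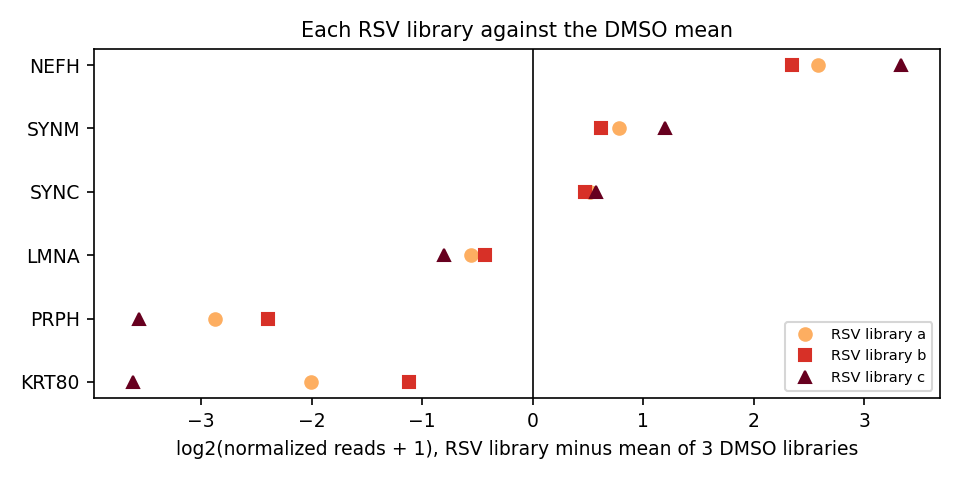
Distance of each RSV library from the mean of the 3 DMSO libraries (x axis, difference of log2(normalized reads + 1)) for 6 filament genes (y axis), with library a as a circle, b as a square and c as a triangle. All points of NEFH, SYNM and SYNC lie above 0 and all points of LMNA, PRPH and KRT80 below it, with library c furthest out for each gene.

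The proteins that hold filaments to membranes, fold them, or link them to the nucleus or to axonal transport were followed as 4 lists. Since every mRNA with a symbol in the model was called, the counts only describe directions. In the list of plakins and linkers at desmosomes and costameres, the sites where filaments meet the cell membrane, 8 of 25 genes had a symbol, 4 were called higher and 3 lower, and PLEC had no settled decimal point. DSC3, a desmosomal cadherin, had 186, 180 and 201 normalized reads in RSV libraries a, b and c and 104, 75.0 and 90.3 in DMSO libraries a, b and c. The log2 difference of DSC3 was 1.08 (SE 0.15). ITGB4, the integrin subunit that anchors keratin filaments at hemidesmosomes, had a log2 difference of 0.87 (SE 0.17). The sarcoglycans, membrane proteins of the dystrophin complex, went both ways, with a log2 difference of 0.69 (SE 0.05) for SGCB and -0.95 (SE 0.19) for SGCD. UTRN, the dystrophin relative utrophin, had a log2 difference of -0.65 (SE 0.12).

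Of 10 chaperones that act on filament proteins, 6 had a symbol, 3 called higher and 3 lower. CRYAB, the small heat shock protein αB-crystallin that binds desmin and vimentin, had 1044, 1064 and 1286 normalized reads in RSV libraries a, b and c and 510.5, 550 and 538 in DMSO libraries a, b and c. The log2 difference of CRYAB was 1.08 (SE 0.10), and that of HSPB8, a partner of the BAG family in chaperone-assisted autophagy, was 1.04 (SE 0.09). HSPB7, a muscle small heat shock protein, had 61.6, 71.1 and 44.6 normalized reads in RSV libraries a, b and c and 215, 242 and 196 in DMSO libraries a, b and c. The log2 difference was -1.89 (SE 0.19) for HSPB7, -0.96 (SE 0.08) for HSPB6 and -0.55 (SE 0.08) for BAG2. The small heat shock proteins therefore did not move in 1 direction.

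Of 16 partners of the nuclear lamina and of the LINC complex, which ties the lamina to the cytoskeleton, 3 had a symbol. SYNE1 and SYNE2 encode the giant nesprins that span the outer nuclear membrane. SYNE1 had 4873, 4763 and 3770 normalized reads in RSV libraries a, b and c and 7235, 6460 and 6751 in DMSO libraries a, b and c. SYNE2 had 1619, 1446 and 1636 normalized reads in RSV libraries a, b and c and 542, 522 and 534 in DMSO libraries a, b and c. The pair thus moved in opposite directions, with a log2 difference of -0.62 (SE 0.10) for SYNE1 and 1.55 (SE 0.07) for SYNE2. TOR1AIP2, a membrane protein that activates torsin, had a log2 difference of -0.49 (SE 0.06).

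Of 19 axonal cytoskeleton genes and neurofilament partners, 6 had a symbol, 4 called higher and 2 lower. SPTBN4, the beta spectrin of axon initial segments, had 390, 400 and 522 normalized reads in RSV libraries a, b and c and 75.8, 93.8 and 70.0 in DMSO libraries a, b and c. Its log2 difference was 2.44 (SE 0.21), the nearest to that of NEFH in this list. The neuronal hydrolase gene UCHL1 had a log2 difference of 0.80 (SE 0.09), and KIF1A, a motor that carries vesicles along axons, had one of 0.76 (SE 0.12). MAP1B, a microtubule-associated protein of growing axons, had 5347, 5448 and 4934 normalized reads in RSV libraries a, b and c and 10295, 10260 and 10256 in DMSO libraries a, b and c. The log2 difference of MAP1B was -0.97 (SE 0.06), opposite in sign to that of SPTBN4.

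**Figure D4:**
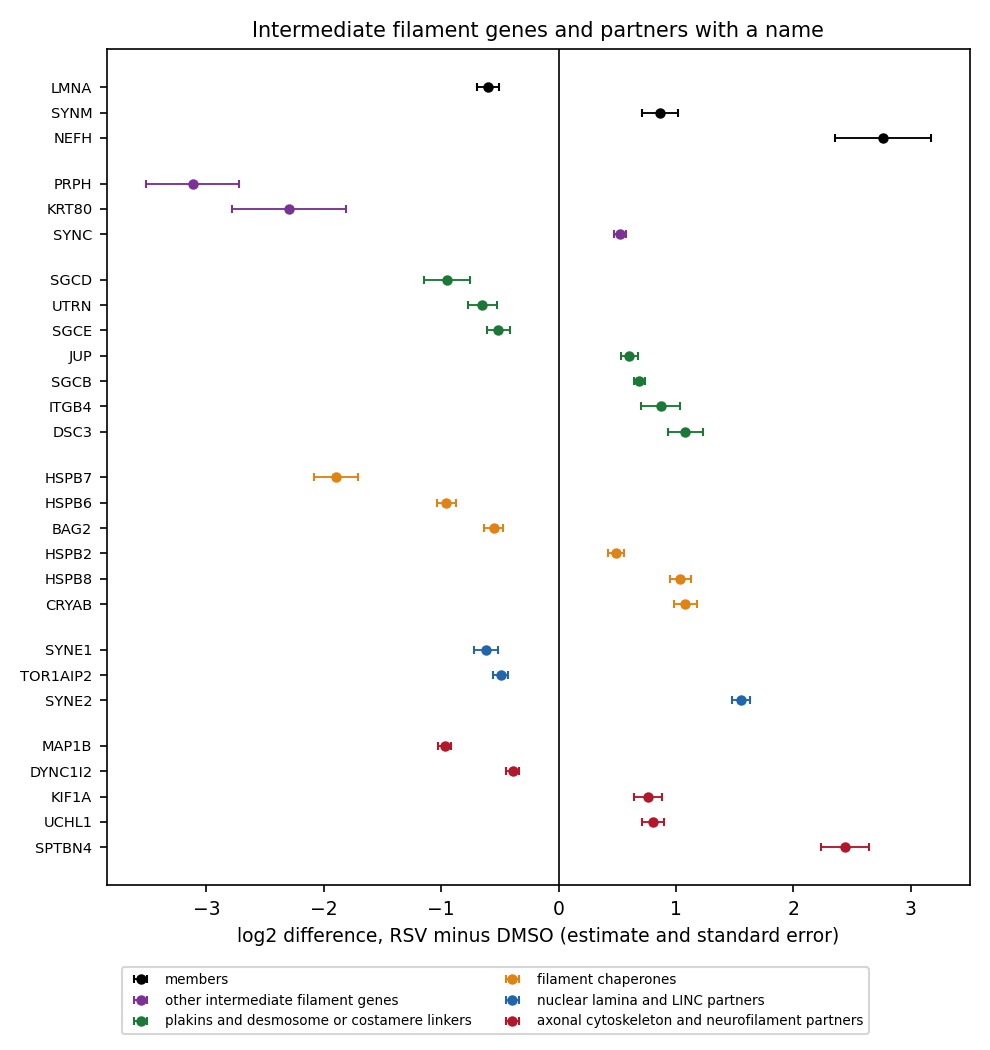
Log2 difference between RSV and DMSO (x axis, point with SE as error bar) for the filament genes and partners with a symbol and an estimate, grouped by list (colour), apart from 1 axonal gene that is not reported here. Genes of each list lie on both sides of 0, from -3.12 for PRPH to 2.76 for NEFH.

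The pattern of NEFH over the 6 libraries was compared with that of 1737 named genes averaging 50 or more normalized reads, by the Euclidean distance of log2(normalized reads + 1) centred on the DMSO mean. The 5 nearest were CXCL3, ANGPTL4, ICAM1, SPTBN4 and CRB1, at distances of 0.162, 0.338, 0.617, 0.711 and 0.744. Centred in this way, the distance mostly reflects the difference between the groups by which NEFH was chosen, and the compared genes had been called on that same contrast, so the order is a description only. CXCL3, a chemokine that attracts neutrophils, had 281, 223 and 433 normalized reads in RSV libraries a, b and c and 39.4, 55.2 and 39.5 in DMSO libraries a, b and c. RSV library c and DMSO library b were the highest of their groups for both CXCL3 and NEFH. ANGPTL4, a secreted inhibitor of lipoprotein lipase, had 310, 257 and 589 normalized reads in RSV libraries a, b and c and 57.1, 55.2 and 49.6 in DMSO libraries a, b and c. ICAM1, an adhesion receptor for leukocytes, had 1304, 1168 and 1529 normalized reads in RSV libraries a, b and c and 208, 231 and 234 in DMSO libraries a, b and c. These distances rest on 6 libraries, and all genes of a library share its size factor.

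Markers of the cell types the cultures could hold could be read only where they had a symbol. This was so for 3 of 12 muscle markers, 5 of 7 fibroblast markers, 1 of 10 neuron markers, 1 of 5 glia and Schwann cell markers, and none of the 4 endothelial or the 2 blood cell markers. MYMK, which drives myoblast fusion, and TNNT1, the slow troponin T, had log2 differences of 0.70 (SE 0.08) and 0.60 (SE 0.08), and embryonic myosin MYH3 had group means of 34967.5 in RSV and 21156.6 in DMSO. PDGFRA, DCN, LUM and THY1, marks of fibroblasts, had log2 differences between -0.83 and -0.42. Of these, DCN had group means of 22591 in RSV and 34252 in DMSO. The neuron marker with a symbol, UCHL1, had a log2 difference of 0.80 (SE 0.09). The labelled myoblasts thus held both muscle and fibroblast marker mRNAs in both groups, but the markers MYOD1, MYOG and DES had no symbol. The part of cell composition in the values of NEFH, SYNM, VIM and LMNA was not tested.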

How the data were processed

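RNA from 3 RSV and 3 DMSO cultures of primary bovine myoblasts was sequenced. Groups follow the treatment in the labels. The authors filtered the reads with in-house scripts and compared the groups with DESeq. The aligner and annotation of the mRNA reads are not given in the sources used here. Bowtie 0.12.9, named in the submitters' processing notes, was used for miRNA reads, which were not analysed here. The deposited table holds, per mRNA, the authors' mean of reads divided by size factors for each group, a log2 fold change and p-values. The p-values were not used, and the log2 fold change served only to place decimal points, which values of 1 or more had lost.

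Each mean was written as a sum of 3 whole read counts over size factors, which were solved from the means. A placement was accepted where the number of chance combinations was below 0.01. For means of at least 1000, reads were also picked by the 99th percentile of the ratio between the highest and lowest library. These limits were 2.06 in RSV and 1.24 in DMSO. The decimal points of 90 mRNAs were placed with the help of this ratio, and those of 39 with the study's FPKM values. Reads were recovered for 20329 of 20459 mRNAs with reads (99.4%), 60 of them picked by the ratio. The search, its tolerance, the ratio and the use of FPKM were set after seeing the data.

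Recovered reads were fitted by limma voom (package version 3.58.1 under R 4.3.3) using library sizes from the size factors, a minimum mean of 10 and adjusted p under 0.05, in place of a count test, because no deposited column holds counts. Other steps used Python 3.11.15, numpy 2.4.6, pandas 2.3.3 and matplotlib 3.10.9. Decoding and fit were tested on simulated data. The simulated decoding reused the solved size factors and no FPKM values. It therefore checked neither the size factors nor the decimal points placed with FPKM, those of VIM and LMNA among them. With 3 libraries per group, the p-values weigh each difference against the spread between these cultures, with variances moderated across all mRNAs in the model.

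The genes and lists were chosen with earlier results of these data known. The text names the 9 listed genes, up to 5 genes of each partner list with the largest absolute difference and a mean of at least 50, and the 5 named genes nearest to NEFH. Of these and of the cell type markers, 1 gene each is not reported here. Symbols came from the study's sheets, since the RefSeq gene table matched none of the identifiers, and genome positions and sequences were not used here. Alternatives were other library sizes, filters, limma trend with a pseudocount of 1 or 5, a minimum log2 difference of 1, the ratio of group means, unique combinations of reads alone, and each library left out in turn.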

Additional observations from a re-analysis of the deposited data

How the results depend on the processing

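The number of mRNAs called was 5100, and it fell to 998 when an absolute log2 difference of at least 1 was also required. Leaving out 1 library gave between 2573 and 6361 calls. The count was 2727 without DMSO library a, 2793 without DMSO library b and 2573 without DMSO library c, each more than 1.5 times below the count with all libraries. With the other library sizes, filters, limma trend and unique combinations of reads it lay between 4669 and 5427. Over all alternatives the log2 difference lay between 2.47 and 2.96 for NEFH, between 0.70 and 0.99 for SYNM and between -0.68 and -0.49 for LMNA. The direction was kept in each. Leaving out 1 library could not have reversed it, because the groups did not overlap for these genes. VIM could not be fitted, and LMNA had no value from unique combinations alone. The counts called in the partner lists did not change without a filter or without any 1 library. The genes counted there had symbols only through the study's calls on this same contrast, so the unchanged counts carry no weight. The alternatives of unique combinations of reads, and of a minimum mean of 50 for single genes, were chosen after seeing the data. No paired analysis was possible because the recovered libraries have no replicate number of their own, and a match to the sample titles through the study's FPKM values, which would rest on the measured values, was not made.

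The values cover 4 of the 9 listed genes, and nothing here bears on NEFM, NEFL, DES, NES or LMNB1.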
